A study of Mus musculus with 6 samples.

Results

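Nuclear genes of oxidative phosphorylation were examined in single CD11b+ brain cells of mice with and without glioma. They were taken by symbol, as every listed gene whose name starts with Nduf, Uqcr, Cox4, Cox5, Cox6, Cox7, Cox8 or Atp5. That gave 92 of the 32932 genes listed in any of 3 pools, and 90 of them were listed in all pools. By name, 39 are complex I subunits, 8 are complex I assembly factors (Ndufaf), 8 belong to complex III, 18 to complex IV and 19 to complex V. 1 symbol, Atp5o, occurs under 2 gene identifiers and was counted under both. The choice used names only, and no measured value.

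Oxidative phosphorylation is the chain of protein complexes in the inner mitochondrial membrane that passes electrons from nutrients to oxygen and uses the resulting proton gradient to make ATP. Complex I takes electrons from NADH, complex III passes them to cytochrome c, complex IV hands them to oxygen, and complex V is the ATP synthase. Most subunits are encoded in the nucleus, translated in the cytosol and imported, while a small core of complexes I, III, IV and V is encoded in the mitochondrial genome (the mt- genes). Microglia, the resident macrophages of the brain, and monocytes that enter a tumor from blood and turn into macrophages both need this machinery, and activated myeloid cells are known for shifting between it and glycolysis.

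The mice were female and male C57BL/6 animals aged 12 weeks, without tumor, at 14 days or at 21 days after tumor implantation, with 3 samples for each sex and state. The title of the series names glioma, and the implanted cells are not given in the sources used here. After perfusion with cold saline, whole brains of controls or the hemispheres with tumor were dissociated by enzymes, and the cells are labelled CD11b+, an integrin of myeloid cells. Each of 3 pools joined 6 samples marked by hashtag antibodies, 1 per sex and state, and was read as 1 library of 3′ mRNA and 1 of antibody tags. The labels do not say which hashtag marked which group, so hashtags are not compared with each other, and hashtag 3 of one pool need not be the group of hashtag 3 in another. Nor are hashed samples tied to animals. Every test sets cells of a sample against other cells of that sample, so a p-value speaks of how much the difference varied from sample to sample, some of which may be technical.

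The mRNA libraries held 74848339, 107880924 and 71510276 UMIs (distinct molecules counted) in 13925, 11010 and 11820 barcodes. A barcode was given to a hashtag that held at least 80% of its hashtag UMIs, which kept 10906, 9351 and 1888 barcodes. Pool 3 stood apart, since only 16.1% of its filtered barcodes had such a hashtag, against 79.2% and 87.5% in pools 1 and 2. Between 32 and 53 barcodes were shared by any 2 pools, and from 5 to 19 of those were among the cells used. Cells were clustered without the genes examined here and the clusters named from marker lists, which gave 9682 microglia-like, 4332 monocyte-like, 3556 macrophage-like, 931 dendritic-like and 742 NK-like cells. Microglia markers summed to 126, 177 and 282 UMIs per 10000 (lowest, median and highest sample) in microglia-like cells and to 5.78, 8.96 and 12.5 in macrophage-like cells. Monocyte markers ran the other way, at 42.5, 74.4 and 116 in monocyte-like and 0.247, 0.857 and 2.25 in microglia-like cells. These sums set microglia-like cells apart, while those of the monocyte- and macrophage-like classes overlapped. The clusters were named from these same lists, so the sums describe the classes and do not test their names. Macrophage markers summed to 51.5, 72.7 and 138 in macrophage-like and 30.6, 36.5 and 63.3 in monocyte-like cells, and monocyte markers to 7.07, 11.7 and 61.9 in macrophage-like cells. Of the 4332 monocyte-like cells, 2889 were of a cluster led by Saa3 with Arg1 and Inhba among its leading genes, and 1443 of a cluster led by Chil3. A further 2418 cells of other clusters stayed unnamed, among them 819 with markers of both microglia and macrophages. Monocyte- and macrophage-like cells reached 20 cells a sample only under hashtags 3 to 6, and some groups may be absent from them.

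For promoter sequences, 75 of the 92 genes matched an entry of RefSeq (GRCm38.p6) by symbol. In windows from 250 bases before to 50 after each start, both strands were searched for the NRF1 motif (GCGCA, any base, GCGC), for CCGGAAG of the ETS family and AAGATGGCG of YY1, factors known for binding promoters of respiratory genes. The NRF1 letters stood in 17 of the 75 (22.7%) against 5.19% of 27025 genes. The ETS letters stood in 17 (22.7%) against 9.93%, and the YY1 letters in 8 (10.7%) against 1.64%. At least 1 of the 3 was found in 36 (48%), against 15.1% of all genes. These are matches of letters, and binding was not measured. A relation between these letters and the differences reported below was not tested. The sequences printed are of genes that the results turn on, each from 220 bases before to 30 after the start, 5′ to 3′ on the gene's strand, with matches in capitals. Cox6a1 (chr5:115348929-115349178, minus strand) and Atp5k (chr5:108434370-108434619, minus strand) hold NRF1 and ETS letters, Atp5md (chr19:47090618-47090867, minus strand) holds ETS letters and Ndufaf4 (chr4:24897863-24898112, plus strand) NRF1 letters. Cox7a1 (chr7:30183951-30184200, plus strand) and Ndufa4 (chr6:11907421-11907670, minus strand) hold none of the 3 in this window. The first 3 are widely used subunits that were higher in macrophage- than in microglia-like cells, while Ndufaf4 and Ndufa4 ran against most genes in some comparisons. Cox7a1 had the highest log2 fold change of the nuclear oxidative phosphorylation genes tested between those classes. It did so at low counts and was tested only through the class where it is high. Overlaps between motifs were kept.
Cox6a1: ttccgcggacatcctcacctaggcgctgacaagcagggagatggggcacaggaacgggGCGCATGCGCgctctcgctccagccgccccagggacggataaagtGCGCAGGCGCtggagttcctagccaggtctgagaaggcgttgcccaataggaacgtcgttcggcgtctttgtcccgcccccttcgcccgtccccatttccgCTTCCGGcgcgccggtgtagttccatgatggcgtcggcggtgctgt
Atp5k: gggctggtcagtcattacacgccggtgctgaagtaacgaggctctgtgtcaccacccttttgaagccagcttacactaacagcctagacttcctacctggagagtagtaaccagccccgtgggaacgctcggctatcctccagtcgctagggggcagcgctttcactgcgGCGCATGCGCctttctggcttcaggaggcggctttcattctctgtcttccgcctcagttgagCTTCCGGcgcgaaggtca
Atp5md: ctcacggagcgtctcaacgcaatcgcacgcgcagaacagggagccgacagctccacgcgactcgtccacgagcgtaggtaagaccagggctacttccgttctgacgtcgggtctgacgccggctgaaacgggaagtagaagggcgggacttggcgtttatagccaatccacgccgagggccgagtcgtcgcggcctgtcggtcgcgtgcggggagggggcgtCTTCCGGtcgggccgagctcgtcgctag
Ndufaf4: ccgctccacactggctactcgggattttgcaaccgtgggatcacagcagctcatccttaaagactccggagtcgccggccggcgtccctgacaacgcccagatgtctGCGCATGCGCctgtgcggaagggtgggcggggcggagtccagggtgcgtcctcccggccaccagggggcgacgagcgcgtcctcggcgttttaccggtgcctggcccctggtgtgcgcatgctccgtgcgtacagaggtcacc
Cox7a1: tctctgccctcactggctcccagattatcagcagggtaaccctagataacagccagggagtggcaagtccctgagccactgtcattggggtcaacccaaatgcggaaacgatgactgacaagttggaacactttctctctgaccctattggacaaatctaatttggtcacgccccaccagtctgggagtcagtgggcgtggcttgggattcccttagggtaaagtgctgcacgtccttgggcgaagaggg
Ndufa4: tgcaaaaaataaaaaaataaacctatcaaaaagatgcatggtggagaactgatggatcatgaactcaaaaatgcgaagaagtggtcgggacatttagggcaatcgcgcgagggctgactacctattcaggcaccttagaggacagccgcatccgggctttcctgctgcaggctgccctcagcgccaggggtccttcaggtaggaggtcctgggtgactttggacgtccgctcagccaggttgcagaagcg

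As a sum, the 90 genes listed in all pools were lower in microglia-like cells than in each of the other 4 classes compared. Levels are UMIs of these genes per 10000 UMIs of all RNA, summed over the cells of a class in a hashed sample, and 3′ counts do not grow with transcript length. Over all 18 samples microglia-like cells held 97.6, 134 and 178 UMIs per 10000 (lowest, median and highest), with 134 to 178 in pool 1, 111 to 151 in pool 2 and 97.6 to 152 in pool 3. In the 11 samples with at least 20 cells of each class, macrophage-like cells held 191, 219.5 and 252 and microglia-like cells 115, 147 and 178, with no overlap. The macrophage-like value was higher in 11 of 11 samples, with a median ratio of 1.57 (1.36 to 1.75). Within pools the median ratio was 1.56, 1.53 and 1.67. Monocyte-like cells held 175, 207 and 241, higher than the microglia-like cells of the same sample in 11 of 11, at a ratio of 1.42. Dendritic-like cells stood at a ratio of 1.34 (10 of 10 samples) and NK-like cells at 1.43 (9 of 9). A sum over chosen genes was given no test.

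Counted per cell, the order was different for NK-like cells. A macrophage-like cell carried a median of 237 UMIs of these genes and a microglia-like cell 96.8, a ratio of 2.53, since macrophage-like cells also held 1.68 times the UMIs. In NK-like cells, which are small, the ratio to microglia-like cells was 0.828 per cell, and it was higher in 2 of 9 samples. Depth thus differed between the classes in both directions, and fewer molecules captured per cell cannot be told apart from fewer present.

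The mt- genes went the other way. They took 0.723, 1.18 and 2.12 percent of RNA UMIs in macrophage-like cells (lowest, median and highest of 11 samples) and 1.76, 2.87 and 3.73 percent in microglia-like cells, with a lower share in macrophage-like cells in 11 of 11. The values overlapped across pools and not within any pool. The median ratio was 0.497 for macrophage-like, 0.435 for monocyte-like, 0.446 for dendritic-like and 0.728 for NK-like against microglia-like cells. Per cell, mt- UMIs of macrophage-like cells stood at 154 against 221, higher in 2 of 11 samples. Microglia-like cells therefore had the lowest level of nuclear subunits per 10000 UMIs and the highest mt- share of the 5 classes compared. Barcodes at or above 10% mt- UMIs were left out of both. Named classes with fewer cells were not compared. Pooled over 135 cells, border-macrophage-like cells stood at 126 UMIs per 10000 and 2.86% mt- UMIs. Neutrophil-like cells (75) stood at 121 and 0.90%. B-like cells (33) stood at 188 and 2.96%, and patrolling-monocyte-like cells (241) at 220 and 1.76%. A low nuclear level with a high mt- share was thus not particular to microglia-like cells.

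**Figure D1:**
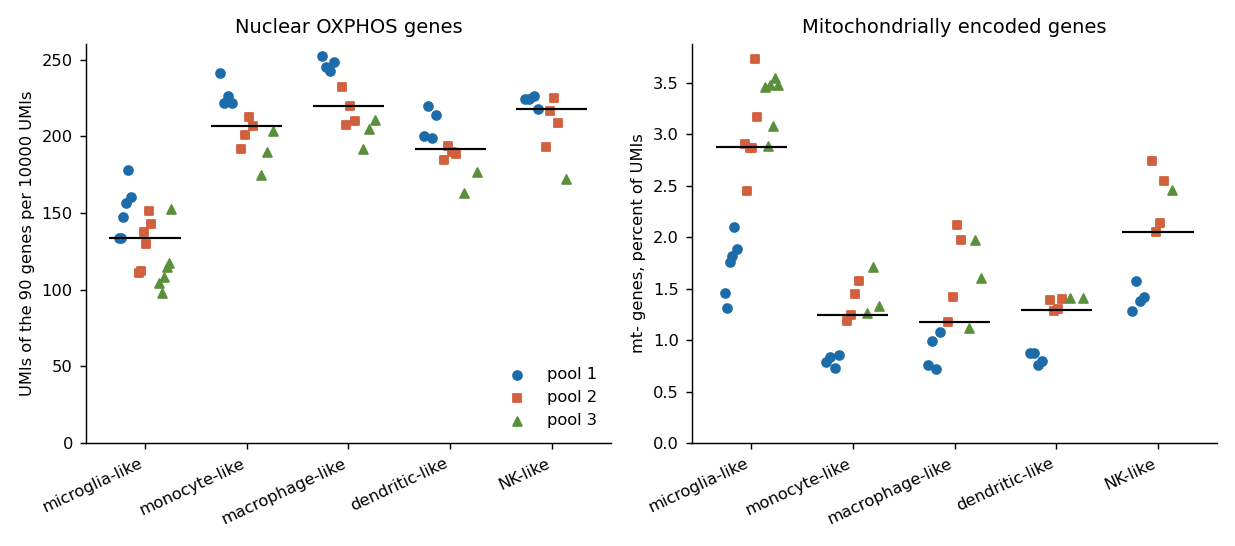
UMIs of the 90 nuclear genes per 10000 RNA UMIs (left) and mt- genes as percent of RNA UMIs (right) in 5 classes, where each point is a hashed sample coloured by pool and the line is the median. Microglia-like samples lie lowest by median on the left, between 97.6 and 178, and highest by median on the right. On the left their range overlaps those of monocyte-, dendritic- and NK-like cells.

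Gene by gene, the class comparisons were tested with edgeR's quasi-likelihood test on counts summed per sample and class, with the hashed sample as a block, and p-values were adjusted over all genes tested (Benjamini-Hochberg, threshold 0.05). Log2 fold changes are on the TMM scale and are given ± their standard error, while levels stay in UMIs per 10000. The sums held 34 to 997 microglia-like, 42 to 774 macrophage-like and 61 to 767 monocyte-like cells in each of 11 samples, 35 to 166 dendritic-like cells in 10 samples and 32 to 202 NK-like cells in 9. Of the 92 genes, 86 passed the filter on low counts in at least 1 comparison, and Cox7b2, Cox8b, Cox8c, Ndufa4l2, the other Atp5o identifier and Ndufb1-ps were never tested. Ndufb1-ps was listed in pools 2 and 3 only, where it held 1.02, 1.56 and 2.82 UMIs per 10000 in microglia-like and 4.22, 5.51 and 6.92 in macrophage-like cells. Macrophage-like against microglia-like cells gave 84 genes tested, 73 higher and 4 lower, with a median log2 fold change of 0.84. Among all 9486 genes tested, 34.4% were higher and 38.4% lower, with a median of -0.05. For monocyte-like cells 70 of 83 were higher and 7 lower (median 0.78), against 36.2% and 41.2% of all genes (median -0.08). These 2 comparisons share their microglia-like cells. A gene that passed the filter only through the class where it is high had to differ, so the counts describe the tested genes alone.

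The scale matters to these counts. The test uses TMM factors, while levels per 10000 use the library total. With the library total in the test as well, the median of all genes moved to -0.29 for macrophage-like and to -0.45 for monocyte-like cells, and the split of all genes to 2290 higher and 4881 lower and to 2250 and 5599. The examined genes then split 68 to 6 with a median of 0.60, and 55 to 12 with a median of 0.42. For dendritic-like cells the median of all genes became -0.35 with 1909 higher and 4121 lower, and the examined genes split 50 to 9. For NK-like cells the median of all genes became 0.02, with 1920 higher and 1844 lower, and the examined genes split 53 to 5. The majority stayed on the higher side on both scales in all 4.

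Complex I genes were mostly higher outside microglia. Of 37 tested, 34 were higher in macrophage-like cells and 1 was lower, with a median of 0.85, and in monocyte-like cells 33 and 1 of 37, with a median of 0.65. Ndufb6, an accessory subunit of the membrane arm, held 1.05, 1.28 and 1.42 UMIs per 10000 in macrophage-like cells and 0.319, 0.565 and 0.83 in microglia-like cells. Those ranges did not overlap, and its log2 fold change was 1.41 ± 0.08 (edgeR adjusted p = 9.58e-13). Ndufb8, from the same arm, held 2.6, 3.27 and 3.65 against 1.22, 1.61 and 2.29, also without overlap (1.2 ± 0.08). Ndufs4, an accessory subunit needed for a stable complex, stood at 1.32, 1.58 and 1.85 in monocyte-like and 0.546, 0.748 and 0.897 in microglia-like cells (1.46 ± 0.08, adjusted p = 6.62e-13), again without overlap. The abundant accessory subunits Ndufa13 and Ndufa2 differed by 0.67 ± 0.07 and 0.85 ± 0.07 in macrophage-like cells. The core subunits of the matrix arm, grouped after their values were seen, ran from 0.01 ± 0.10 for Ndufs1 (adjusted p = 0.952) to 0.90 ± 0.07 for Ndufv2. Among them Ndufs3 was higher by 0.24 ± 0.06 in the test, although its level per 10000 was higher in only 3 of 11 samples.

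Ndufa4 was the complex I gene by name that ran against the rest. It was first described in complex I and has since been found with complex IV. In macrophage-like cells it held 0.883, 1.3 and 2.49 UMIs per 10000, against 2.15, 3.06 and 4.2 in microglia-like cells, ranges that overlap. Its log2 fold change was -0.88 ± 0.13 (edgeR adjusted p = 3.10e-06), lower in 11 of 11 samples. Dendritic-like cells were lower too, at -0.63 ± 0.08, with no overlap at 1.21, 1.59 and 1.99 against 2.58, 3.13 and 4.2. In NK-like cells the gene was higher, by 0.66 ± 0.12 (adjusted p = 8.14e-05), at 2.83, 5.48 and 6.37 against 2.58, 3.21 and 4.2. The monocyte-like difference of -0.30 ± 0.09 (adjusted p = 0.00756) became -0.06 (adjusted p = 0.588) without the monocyte cluster led by Saa3.

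Assembly factors build complex I and are not part of the finished enzyme, and their values were split. Their sum stood at a ratio of 1.07 in macrophage-like cells (9 of 11 samples higher) and 0.824 in monocyte-like cells (1 of 11 higher). Of 8 tested, 4 were higher and 1 lower in macrophage-like cells, against 34.4% and 38.4% of all genes. In monocyte-like cells 2 were higher and 4 lower, against 36.2% and 41.2%. The latter counts are near the shares of all genes. Ndufaf7, a methyltransferase acting on a core subunit, held 0.0323, 0.0774 and 0.172 in macrophage-like and 0.213, 0.332 and 0.453 in microglia-like cells, without overlap (-1.46 ± 0.15, adjusted p = 1.70e-08). In monocyte-like cells its log2 fold change was -1.36 ± 0.12. Ndufaf4 held 0.0671, 0.105 and 0.191 in monocyte-like against 0.213, 0.28 and 0.332 in microglia-like cells, without overlap (-0.94 ± 0.13, adjusted p = 1.18e-06). In macrophage-like cells Ndufaf4 differed by 0.20 ± 0.09 (adjusted p = 0.0489). Ndufaf8 and Ndufaf5 were higher in macrophage-like cells, by 0.99 ± 0.08 and 0.78 ± 0.16.

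Complex III genes were higher for 7 of 8 in macrophage-like cells (median 0.71) and for 7 of 8 in monocyte-like cells (median 0.85), and Uqcrc2 passed the test in neither. Uqcrq, a small subunit of the membrane part, held 3.75, 4.38 and 5.05 in macrophage-like and 1.78, 2.47 and 3.7 in microglia-like cells, without overlap (1.05 ± 0.08, adjusted p = 1.19e-10). Uqcrb and Uqcr10, also small subunits, differed by 1.15 ± 0.09 and 1.04 ± 0.08, and Uqcrfs1, the Rieske iron-sulfur protein, by 0.78 ± 0.08. The core proteins Uqcrc1 and Uqcrc2 differed by 0.33 ± 0.07 and 0.15 ± 0.07 (adjusted p = 0.0529 for the latter). Uqcrh, the hinge protein that meets cytochrome c1, differed by 0.42 ± 0.09 (adjusted p = 2.03e-04, higher in 8 of 11), and with library-size scaling its adjusted p was 0.0555. In NK-like cells Uqcrh differed by 0.92 ± 0.08, with 6.49, 7.34 and 8.29 against 2.99, 3.81 and 4.63 and no overlap.

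Complex IV gave the highest ratios of the sums, 1.73 in macrophage-like and 1.64 in monocyte-like against microglia-like cells, both without overlap. Gene by gene 11 of 13 were higher and 1 lower in macrophage-like cells (median 1.09), and 11 and 1 of 12 in monocyte-like cells (median 1.15). Cox8a, the most abundant of all the genes examined with 168324 UMIs (5.21% of their total), held 10, 11.9 and 15 in macrophage-like and 4.99, 6.6 and 8.43 in microglia-like cells, without overlap. Its log2 fold change was 1.09 ± 0.07 (adjusted p = 3.13e-11). Cox7a2, the common form of subunit VIIa, held 4.37, 5.0 and 6.43 against 1.67, 2.39 and 3.16 (1.36 ± 0.08), also without overlap. Cox5a and Cox5b, subunits that surround the mt- encoded core, differed by 1.35 ± 0.09 and 1.3 ± 0.08 in macrophage-like cells, and Cox5b by 1.5 ± 0.09 in monocyte-like cells. Cox4i1, the common subunit IV, differed by 0.64 ± 0.07, and the abundant Cox7c by 1.09 ± 0.07. Cox7a2l, a factor of respiratory supercomplexes, differed by 0.09 ± 0.10 (adjusted p = 0.42). In monocyte-like cells its value was 0.22 ± 0.08, a direction that library-size scaling turned to -0.15.

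Complex V genes were nearly all higher. Of 18 tested, 17 were higher and 1 lower in macrophage-like cells (median 0.97), and 17 and 1 in monocyte-like cells (median 0.94). Atp5md, known as DAPIT and a small subunit of ATP synthase dimers, held 2.75, 3.79 and 5.11 UMIs per 10000 in macrophage-like and 0.77, 1.43 and 2.12 in microglia-like cells, without overlap. Its log2 fold change was 1.68 ± 0.07 (adjusted p = 2.20e-14), and in monocyte-like cells 1.83 ± 0.07. Atp5l (subunit g), Atp5k (subunit e) and Atp5o (the stalk protein OSCP) differed by 1.28 ± 0.07, 1.22 ± 0.09 and 1.26 ± 0.07 in macrophage-like cells. The catalytic head genes Atp5a1, Atp5b and Atp5c1, grouped after their values were seen, differed by 0.42 ± 0.07, 0.74 ± 0.07 and 0.60 ± 0.07. The 3 genes for the identical subunit c of the rotor, Atp5g1, Atp5g2 and Atp5g3, differed by 1.1 ± 0.08, 0.52 ± 0.07 and 1.02 ± 0.07. For Atp5g2 the monocyte-like value of 0.23 ± 0.07 turned to -0.13 with library-size scaling and to -0.28 without the Saa3-led cluster. Atp5s, a coupling factor at a low level, was the lower gene, with 0, 0.0266 and 0.0432 against 0.0332, 0.0631 and 0.106 (-0.88 ± 0.20, adjusted p = 6.54e-04). It did not pass the filter on low counts between macrophage- and monocyte-like cells, and so was tested through the class where it is high.

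**Figure D2:**
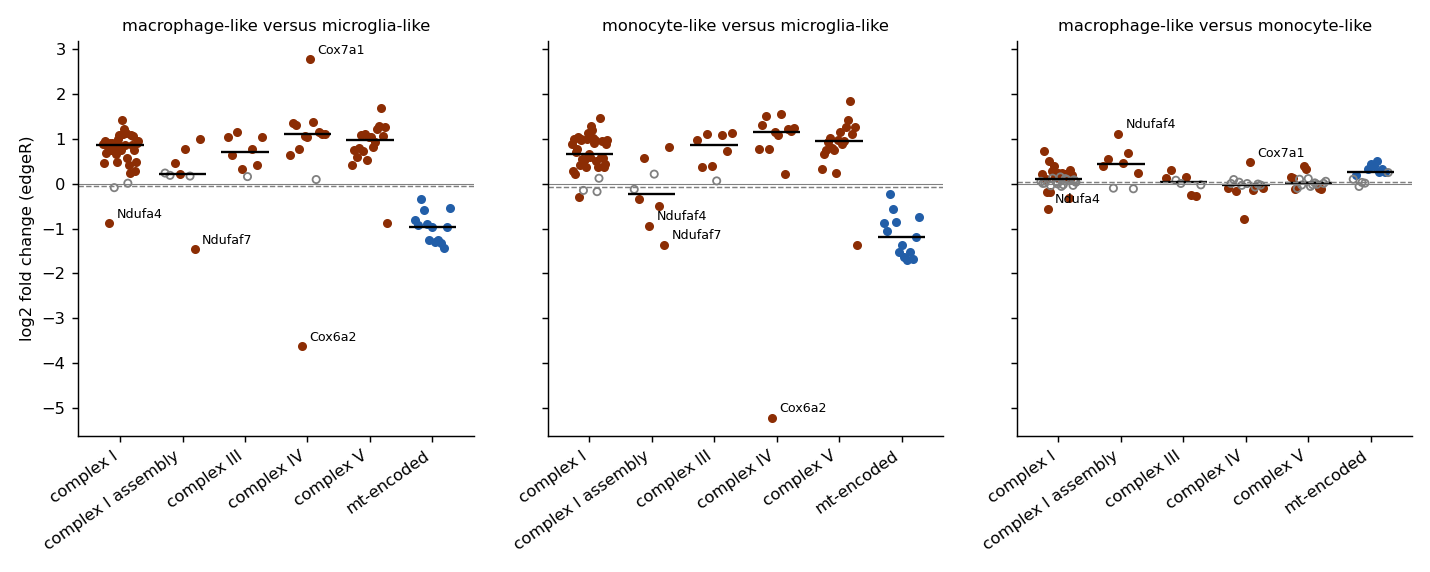
Log2 fold changes of each tested gene by complex, beside the mt- genes, in 3 comparisons, where filled points passed the edgeR test (adjusted p under 0.05), open ones did not, black bars are list medians and the dashed line is the median of all genes tested. Against microglia-like cells the nuclear complexes lie mostly above 0 with Cox6a2 far below, and all 13 mt- genes lie below 0.

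The 13 mt- genes were all lower in macrophage-like (13 of 13, median -0.96) and in monocyte-like cells (13 of 13, median -1.18). The sum of mt- complex I genes stood at a ratio of 0.417 in macrophage-like and 0.287 in monocyte-like cells, while that of mt- complex IV genes stood at 0.554 and 0.571. mt-Nd4, a proton-pumping subunit of complex I, held 5.12, 8.94 and 12.5 against 22, 23.9 and 28.2 UMIs per 10000 without overlap (-1.32 ± 0.11, adjusted p = 9.78e-10). mt-Co1, the catalytic subunit of complex IV, differed by -0.34 ± 0.07 (adjusted p = 2.75e-04). Nuclear and mt- subunits of the same complexes thus differed in opposite directions between these classes. Genes induced by dissociation differed as well, with 11 of 15 lower in macrophage-like cells against 38.4% of all genes, among them Egr1 (-3.42 ± 0.20). The part of these genes in the result was not tested.

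Tissue isoforms of complex IV were rarer than their common partners. Cox6a2, the heart and muscle form of subunit VIa, held 0.106, 0.446 and 0.93 UMIs per 10000 in microglia-like cells and 0.0103, 0.0283 and 0.0586 in macrophage-like cells, without overlap. The log2 fold change was -3.62 ± 0.21 (adjusted p = 3.20e-12), and in monocyte-like cells -5.21 ± 0.21 on 38 UMIs against 1452. Cox6a2 did not pass the filter on low counts between macrophage- and monocyte-like cells. It was thus tested only through the class where it is high and had to differ, so its p-values are no support. Its partner Cox6a1, the common form, was higher in macrophage-like cells by 0.77 ± 0.07, at 1.81, 2.15 and 2.3 against 1.19, 1.42 and 1.86. Dendritic- and NK-like cells also had less Cox6a2, at -2.76 ± 0.33 and -2.3 ± 0.30. Over the 18 microglia-like samples Cox6a2 ranged from 0.041 to 0.93 with a median of 0.265. Pooled by cluster, it stood at 0.641 and 0.39 in the microglia-like clusters led by C4b (1150 and 262 UMIs). In those led by P2ry12 or Arl4d it stood at 0.0618 to 0.0744, against 0.108 in NK-like cells. The dividing cluster stood at 0.729 and B-like cells at 1.38 on 41 UMIs. A high level was thus neither shared by all microglia-like clusters nor particular to them. The gene (chr7:128205435-128206366, GRCm38.p6) overlaps Itgad at its edge, and the latter stood at 0.000699 UMIs per 10000 in microglia-like cells.

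Cox7a1, the muscle form of subunit VIIa, was rare and higher outside microglia. It held 0.0462, 0.0737 and 0.12 UMIs per 10000 in macrophage-like cells (320 UMIs in all) against 0, 0.012 and 0.0287 in microglia-like cells, without overlap. The log2 fold change of 2.76 ± 0.24 (adjusted p = 1.97e-09) rests on these low counts. Cox7a1 passed the filter only for macrophage-like cells against microglia- and monocyte-like cells. It was thus tested through the class where it is high and had to differ from microglia-like cells, so the p-value is no support. Cox4i2, the lung form of subunit IV, gave 132 UMIs in macrophage-like, 134 in monocyte-like and 38 in microglia-like cells, and was tested only between the first 2 classes (0.00 ± 0.22). Cox6b2, a testis form, held a median of 0.0506 in monocyte-like, 0.0296 in macrophage-like and 0.0150 in microglia-like cells. Cox8b, the muscle form of subunit VIII, gave 3 UMIs in microglia-like and 2 in monocyte-like cells. At a few UMIs per sample, free RNA in the droplets cannot be told apart from expression.

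**Figure D3:**
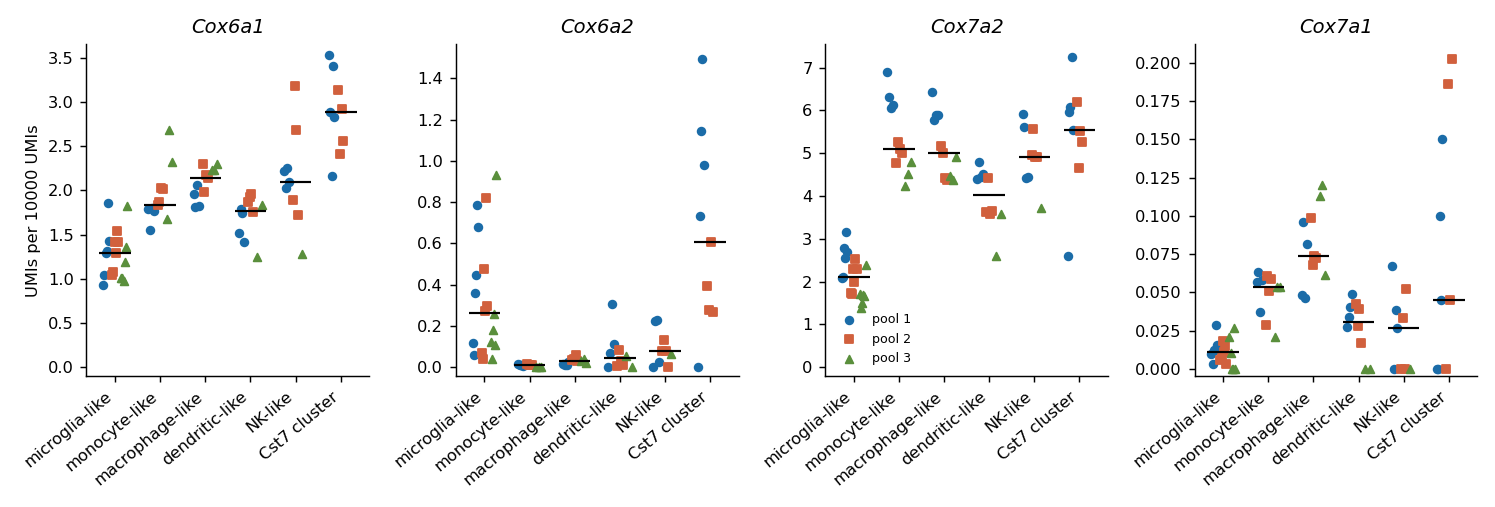
UMIs per 10000 of the subunit VIa pair Cox6a1 and Cox6a2 and the subunit VIIa pair Cox7a2 and Cox7a1 by class and in the cluster led by Cst7, where points are hashed samples and lines are medians. Among the classes plotted the common forms are lowest by median in microglia-like cells. Cox6a2 is highest there (0.265 over 18 samples) and in the Cst7-led cluster (0.607 over 9 samples). In those 9 samples the microglia-like median was 0.446, and the cluster was higher in 5.

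Macrophage-like and monocyte-like cells differed little in the sum of the genes, with a ratio of 1.07 (1.01 to 1.21) and the macrophage-like value higher in 11 of 11 samples. Of 84 genes, 31 were higher in macrophage-like cells and 14 lower (median 0.05), against 28.7% and 27.1% of all genes (median 0.03). The balance of higher and lower genes depended on which clusters were counted: with the mixed unnamed cluster added to the macrophages it turned around, to 12 higher and 35 lower, and without the Saa3-led monocyte cluster it was 47 higher and 8 lower. Without the sample block 16 were higher and 3 lower. The counts were 20 higher and 8 lower without pool 1, and 18 and 5 without pool 2. Library-size scaling gave 43 higher and 5 lower, while all genes moved to 3267 and 1927 (median 0.11). Complex I and its assembly held most calls, with 17 and 6 of the higher genes. These groups also make up 39 and 8 of the 92 genes listed. Ndufaf4 held 0.202, 0.302 and 0.33 against 0.0671, 0.105 and 0.191 UMIs per 10000 without overlap (1.1 ± 0.10, adjusted p = 3.64e-09). Ndufa12, an accessory subunit that joins late, held 1.13, 1.62 and 1.99 against 0.708, 0.966 and 1.12, also without overlap (0.72 ± 0.05). The assembly factors Ndufaf6 and Ndufaf2 differed by 0.68 ± 0.14 and 0.54 ± 0.12, and the subunit Ndufa5 by 0.51 ± 0.07. Among the 14 lower genes were Cox6b2 (-0.80 ± 0.19), Ndufa4 (-0.56 ± 0.09, lower in 9 of 11) and Ndufs4 (-0.33 ± 0.04, lower in 11 of 11). Cox6b2 rests on 142 UMIs in macrophage-like against 183 in monocyte-like cells. In the pool 3 samples its level was higher in macrophage-like cells, as with 0.0306 against 0.0134 under hashtag 6. Uqcrh and Uqcrfs1 were lower at -0.27 ± 0.04 and -0.26 ± 0.05, and without the block their adjusted p was 0.119 and 0.148. Complex IV gave 1 higher and 5 lower of 14, and its sum a ratio of 1.01. Of the mt- genes 8 of 13 were higher, with the sum of mt- complex I at a ratio of 1.38 in 11 of 11 samples and mt-Co1 at -0.06 ± 0.06 (adjusted p = 0.373).

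In dendritic-like cells, which present antigen, 69 of 81 genes were higher than in microglia-like cells and 5 lower (median 0.60), against 34.5% and 36% of all genes. Atp5md (1.56 ± 0.07), Atp5l (1.23 ± 0.07), Cox5a (1.2 ± 0.09) and Cox5b (1.19 ± 0.08) led the higher genes. Beside Cox6a2 and Ndufa4, the genes Ndufs3 (-0.40 ± 0.11), Ndufaf4 (-0.48 ± 0.16) and Ndufaf7 (-0.54 ± 0.14) were lower, and Ndufaf4 did not pass without pool 1 (adjusted p = 0.128). Cox7a2l was higher by 0.55 ± 0.08. The sum of the dendritic-like cells was 163, 192 and 219.9 UMIs per 10000, and their microglia markers summed to 7.95, 12.5 and 26.9.

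NK-like cells are lymphocytes that can carry CD11b. Their counts were 51 of 79 higher and 7 lower (median 0.38), against 32% and 32.9% of all genes. The leading higher genes were the ATP synthase subunits Atp5h (1.04 ± 0.09) and Atp5d (1.03 ± 0.08), the complex I subunit Ndufb7 (1.01 ± 0.12), Atp5md (1.0 ± 0.10) of the ATP synthase and Ndufs4 (0.98 ± 0.09) of complex I. Lower beside Cox6a2 were Ndufaf7 (-0.71 ± 0.18), Ndufc2 (-0.58 ± 0.11), Ndufa9 (-0.49 ± 0.11), Ndufs8 (-0.45 ± 0.13), Ndufs3 (-0.28 ± 0.12) and Uqcr11 (-0.26 ± 0.10), and without pool 1 only 3 genes were lower. With counts summed per pool Ndufa9 and Ndufs8 did not pass (adjusted p = 0.0629 and 0.0978). Complex V gave 15 higher of 17, and complex I 21 higher and 4 lower of 37. The mt- genes were lower for 12 of 13, by a median of -0.45. Microglia markers in NK-like cells summed to 7.35, 26.9 and 41.4 UMIs per 10000, and their part in these values was not tested.

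All cells were also split by 2 antibody tags alone, with no RNA. The tag level of TMEM119, a microglia protein, minus that of Ly-6C, a monocyte protein, was cut at 1 threshold in each pool, and cells below it were set against cells above it within 17 samples. Every cell fell into an arm, so cells high or low for both tags are included. The arm above the threshold, with relatively more TMEM119, was 91.0% microglia-like by cluster, and the other arm held 34.9% monocyte-like, 28.6% macrophage-like, 7.18% dendritic-like and 5.46% NK-like cells. Of 84 genes, 74 were higher in the arm below the threshold and 3 lower (median 0.88), against 33.2% and 37.6% of all genes (median -0.05). Cox6b2 (2.22 ± 0.44) led, followed by Atp5md (1.62 ± 0.11) and Atp5l (1.34 ± 0.10). Without a small cluster led by Ttr, which encodes transthyretin and marks choroid plexus, Cox6b2 did not pass the filter on low counts, and 71 genes were higher and 3 lower. Cox6a2 was lower at -1.37 ± 0.26, with Atp5s at -0.92 ± 0.17 and Ndufaf7 at -0.81 ± 0.08. Ndufa4 did not pass (adjusted p = 0.0855). Of the mt- genes 8 of 13 were lower, led by mt-Nd3 (-0.59 ± 0.16). Cells of the arm below held a median over samples of 7191 UMIs against 5166. With library-size scaling the examined genes split 64 to 6 and all genes 2231 to 5404 (median -0.32).

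Among microglia-like cells, the 25% with the least TMEM119 tag were compared with the 25% with the most, in 16 samples. Of 78 genes, 66 were higher in the low-tag cells and 0 lower (median 0.49), by edgeR, against 23.8% and 23% of all genes (median -0.02). The count of lower genes was 1 at an unadjusted p under 0.05 and 0 by DESeq2. Cox8a held 4.16, 6.91 and 11.3 UMIs per 10000 in low-tag and 2.92, 4.65 and 6.26 in high-tag cells, ranges that overlap. It was higher in 16 of 16 samples, by 0.74 ± 0.08 (adjusted p = 2.91e-08). Uqcrq (0.87 ± 0.12), Cox5a (0.82 ± 0.13) and Cox7b (0.81 ± 0.11), a small subunit of complex IV, led the higher genes. By level per 10000 these genes were higher in only 12, 11 and 14 of 16 samples. Cox5a stood at 5.53 in low-tag against 2.11 in high-tag cells under hashtag 5 of pool 1. Under hashtag 1 of pool 3 it stood at 1.12 against 1.81. Here the mt- genes went the same way as the nuclear genes, with 13 of 13 higher (median 0.47) and mt-Co1 at 0.67 ± 0.07. Ndufs1 (-0.28 ± 0.12, adjusted p = 0.066) did not pass. The low-tag cells were deeper, with a median over samples of 6596 UMIs per cell against 4217. They also came from other clusters, since clusters led by P2ry12 or Arl4d held 34.4, 78.8 and 100 percent of the high-tag cells and 5.19, 32.2 and 97.8 percent of the low-tag cells. With gates on raw tag counts 43 genes were higher, and with library-size scaling 49 were higher and 5 lower, while all genes split 943 to 3040 (median -0.21).

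Among monocyte- and macrophage-like cells, the 25% highest for the Ly-6C tag were compared with the 25% lowest in 11 samples. Of 80 genes, 6 were higher in the Ly-6C-high cells and 35 lower (median -0.13), against 25% and 25.4% of all genes (median -0.02). Macrophage-like cells made up 28.9, 73.3 and 88.1 percent of the low arm and 2.14, 12.2 and 33.7 percent of the high arm, so the gates also compare the classes. The low arm was deeper, at a median over samples of 10780 UMIs per cell against 7771. Ndufa4 held 1.47, 2.43 and 3.07 UMIs per 10000 in Ly-6C-high and 0.758, 1.02 and 2.34 in Ly-6C-low cells, higher in 11 of 11 samples with overlapping ranges. Its log2 fold change was 1.0 ± 0.11 (adjusted p = 6.95e-07). Ndufaf4 was lower at 0.0167, 0.0738 and 0.175 against 0.165, 0.272 and 0.346 (-1.59 ± 0.20, adjusted p = 3.53e-06). Ndufa12 and Ndufa5, both accessory subunits of the matrix arm, were lower at -0.93 ± 0.09 and -0.88 ± 0.11. Of the rotor genes Atp5g1 held 1.98, 2.54 and 2.84 against 3.26, 3.88 and 4.59 without overlap (-0.64 ± 0.08), while Atp5g2 and Atp5g3 were at -0.54 ± 0.08 and -0.32 ± 0.06, and with raw tag gates Atp5g3 did not pass (adjusted p = 0.396). Cox8a gave 0.04 ± 0.06 (adjusted p = 0.613), and 2 of 11 complex IV genes were lower. Of the 35 lower genes 21 were among the 37 tested for complex I. With raw tag counts, or with counts summed per pool, 18 genes were lower, and without pool 2 only 3 were higher.

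**Figure D4:**
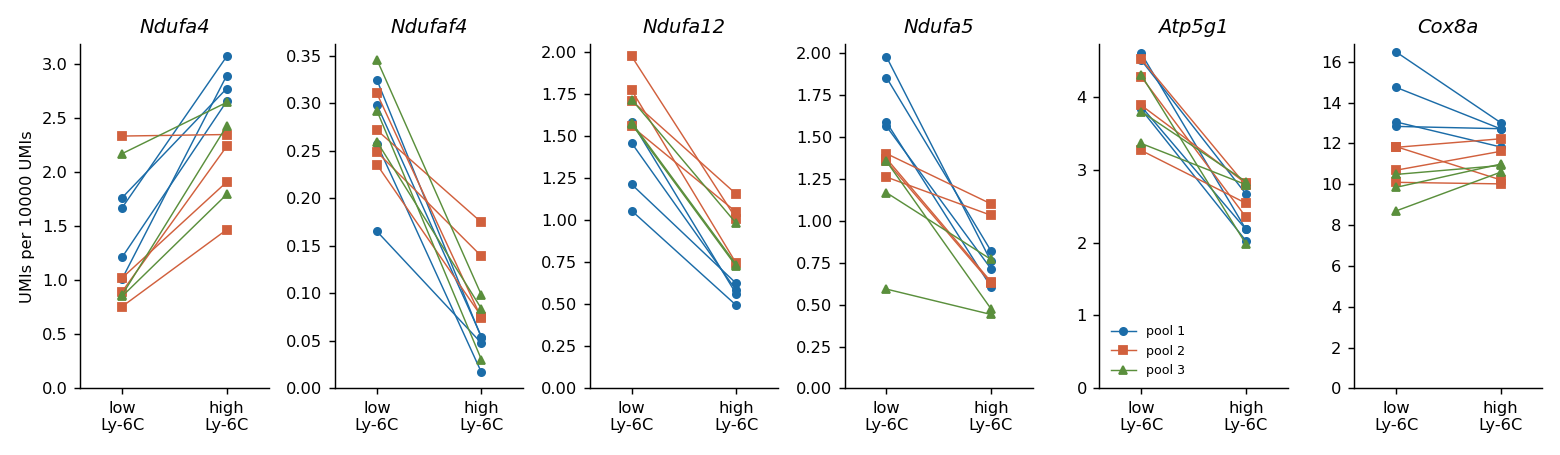
UMIs per 10000 of Ndufa4, Ndufaf4, Ndufa12, Ndufa5, Atp5g1 and Cox8a in the 25% of monocyte- and macrophage-like cells with the lowest and the highest Ly-6C tag, where a line joins the arms of a hashed sample. Ndufa4 is higher in the high-tag arm in 11 of 11 samples and Atp5g1 lower in 11 of 11, while Cox8a did not pass the test.

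Clusters outside the named classes held the extremes. A cluster of 632 cells led by Cst7 and Spp1, genes known from activated microglia, carried markers of both microglia and macrophages and stayed unnamed. In 9 samples with at least 20 of its cells, it held 188, 299 and 343 UMIs of the examined genes per 10000, against 129.6, 147 and 178 in microglia-like cells of the same samples. That was higher in 9 of 9 with a median ratio of 1.98, and the ranges did not overlap. The ratio was 1.92 for complex I, 1.99 for complex III, 2.07 for complex IV and 2.0 for complex V. Its mt- share was 2.18, 2.92 and 4.21 percent against 1.31, 2.1 and 3.73 percent, higher in 8 of 9. Cox6a2 was higher there in 5 of 9 samples and Cox6a1 in 9 of 9, at a ratio of 1.9. Its cells were shallow, with a median of 3135 UMIs. These are descriptions of 1 cluster with no test.

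The Ttr-led cluster of 110 cells had the highest pooled level of all 23 clusters, 615 UMIs per 10000, with 5.57% mt- UMIs. It also held 369 of the 378 Cox8b UMIs and pooled levels of 1.13 for Cox7a1 and 1.84 for Cox6b2. A cluster of 78 cells with few UMIs, led by Slfn4, had the lowest level, 70.8, with the highest mt- share, 6.16%. The dividing cells, led by Ube2c, stood at 223. Within microglia-like cells the clusters' medians over samples ran from 103 in the cluster led by Arl4d to 157 in another.

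**Figure D5:**
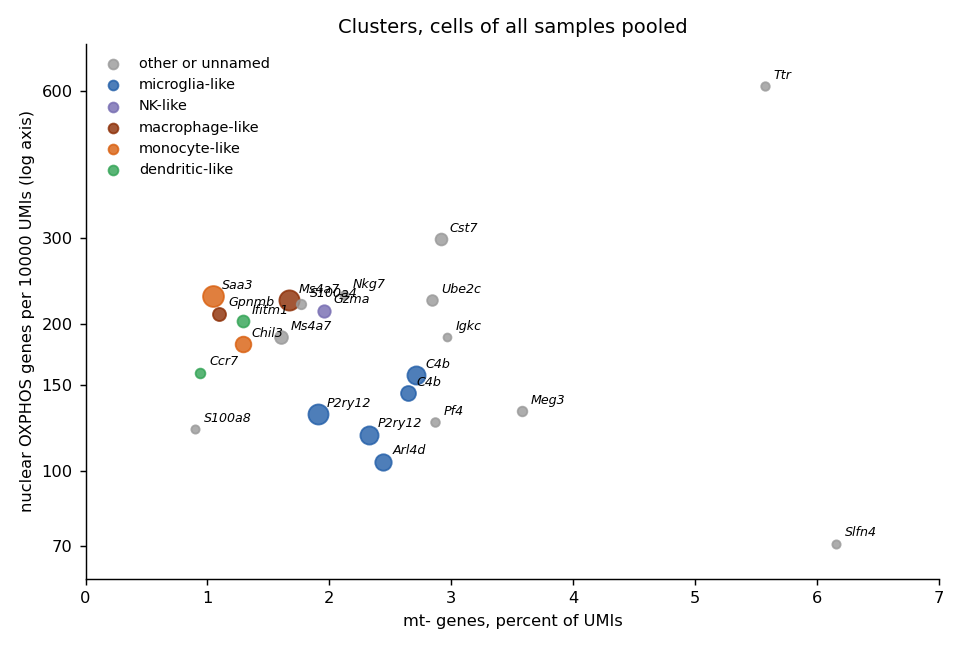
Pooled UMIs of the 90 genes per 10000 (log axis) against the mt- share in percent for each of the 23 clusters, where the point size follows the number of cells and the label is the leading gene. The Ttr-led cluster lies highest at 615 and the Slfn4-led cluster lowest at 70.8.

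Over 59 pairs of sample and class, the genes whose level followed the sum most closely among 9115 others were Psmb3, a proteasome subunit (Spearman rho 0.925), Elob, an elongin (0.922), Gtf2h5 of the transcription factor TFIIH (0.899), Sf3b6 of the spliceosome (0.892) and Gpr65, an acid-sensing receptor (0.887). The pairs share samples, libraries and depth, so these values describe likeness only.

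Neighbouring pathways were followed with lists chosen with earlier results known. Complex II, the succinate dehydrogenase encoded fully in the nucleus, gave 3 of 4 higher in macrophage-like cells, with Sdhd at 0.88 ± 0.07. Of all genes in that comparison 34.4% were higher and 38.4% lower. Cycs, cytochrome c itself, was higher by 1.46 ± 0.08 in macrophage-like and 1.82 ± 0.09 in monocyte-like cells. Mitochondrial ribosome genes, which serve translation of the mt- genes, were higher for 70 of 78 in macrophage-like cells (median 0.65), led by Mrpl54 (1.56 ± 0.09). In Ly-6C-high cells 51 of 77 were lower (median -0.39), against 25.4% of all genes. Glycolysis genes were higher for 13 of 14 in macrophage-like cells (median 1.42). In monocyte-like cells 13 of 14 were higher (median 1.93), against 36.2% of all genes. The platelet-type phosphofructokinase Pfkp led with 3.54 ± 0.17 and 4.84 ± 0.16. Between macrophage- and monocyte-like cells glycolysis was lower for 14 of 14, against 27.1% of all genes. In Ly-6C-high cells glycolysis was higher for 12 of 14 (median 0.51), against 25% of all genes. Cytosolic ribosome genes, a list by prefix that also takes the kinases Rps6ka1 and Rps6kc1, were higher for 79 of 89 in macrophage-like cells. Of the TCA cycle 12 of 16 were higher and 2 lower; Suclg2, a subunit of succinyl-CoA ligase, stood at -1.76 ± 0.11. Slc25a4, an ADP/ATP carrier of the inner membrane, was also lower at -1.59 ± 0.11. Of 10 regulators of mitochondrial biogenesis 1 was higher and 3 were lower, the latter near the share of all genes, with Ppargc1b at 1.07 ± 0.19 and Gabpb1 at -0.80 ± 0.12. Many of these families have processed copies in the genome, and reads that match a copy equally well could be lost or split, which was not tested.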

How the data were processed

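RNA and antibody tags of CD11b+ brain cells were measured in 6 libraries of 3 pools. The authors deposited UMI counts per gene or tag and barcode, without normalization. The submitters' processing notes name bcl2fastq 2.20.0.422, Cell Ranger (3.0.1, 4.0.0), Seurat 3 and mm10, without saying what Seurat did. Per the file headers, Cell Ranger 3.1.0 made the counts of pool 1 and 4.0.0 those of the other pools.

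Barcodes with at least 200 genes, 500 UMIs and under 10% mt- UMIs were kept, with the hashtag rule of the report and at least 10 hashtag UMIs, which also removes doublets of differently hashed samples. Clusters came from 2000 variable genes without the genes and lists examined, 30 principal components, 15 neighbours and Leiden resolution 1 (scanpy 1.11.5, scikit-learn 1.9.0, igraph 0.11.9, Python 3.11.15), named from fixed markers. Counts were summed per hashed sample and arm with at least 20 cells in both arms and tested with edgeR 4.0.16 in R 4.3.3 (quasi-likelihood, TMM, filterByExpr). Fold changes carry standard errors, and the threshold was an adjusted p of 0.05. Tag gates used centred log ratios of the tag counts. The code was tested on simulated data.

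Each sample gives both arms, which is where the pairing by block comes from. Named genes are those with the most extreme fold change past the test (up to 10 each way for macrophage- against microglia-like cells, 5 for other classes, 3 for gates), the 2 most abundant of each complex, and tissue isoforms with their partners. Other genes are named from counts of few genes or after their values were seen. Genes and lists were chosen with earlier results of these data known. Alternatives covered DESeq2 1.42.0, library-size scaling, no count filter, HTODemux hashtags (quantile 0.99), a Scrublet limit of 0.2, no mt- limit, at least 50 cells, sums per pool, no block, raw tag gates and leaving out each pool.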

Additional observations from a re-analysis of the deposited data

How the results depend on the processing

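Most values did not move. Of 420 counts, sums and shares under the alternatives 388 stayed within 1.5 times or within the spread, and of 2519 values of named genes 2392 kept direction and call, 81 lost the call, 36 gained it and 10 reversed. Library-size scaling gave 12 lower genes for monocyte- against microglia-like cells, 9 for dendritic-like cells and 6 for the split by 2 tags. It also gave 5 lower between macrophage- and monocyte-like cells, 5 lower for low TMEM119 and 3 higher for high Ly-6C. It reversed Cox7a2l in monocyte-like cells (-0.15) and in the split by 2 tags (-0.081), and Atp5g2 in monocyte-like (-0.13) and dendritic-like cells (-0.062).

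Without the replicate block, that is without the pairing of arms by sample, macrophage- against monocyte-like cells gave 16 higher and 3 lower, and high Ly-6C 2 higher; no other count moved past 1.5 times. Sums per pool gave 19 higher for macrophage- against monocyte-like cells, 3 lower for NK-like cells and 18 lower for high Ly-6C. Without the count filter 9 were lower between macrophage- and monocyte-like cells, 1 was lower for low TMEM119, and 6083 of all genes were called for NK-like cells. HTODemux hashtags and the Scrublet limit each gave 1 lower for low TMEM119. Raw tag gates gave 43 higher for low TMEM119, 18 lower for high Ly-6C and 2484 of all genes called there.

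Leaving out 1 pool at a time gave 18 to 28 higher and 5 to 12 lower for macrophage- against monocyte-like cells, and 3 to 6 lower for NK-like cells. It gave 3 to 6 higher for high Ly-6C, and 1733 to 3225 of all genes called for low TMEM119.

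The following were chosen after seeing the data. Without the Saa3-led cluster 11 genes were lower in monocyte- than in microglia-like cells, with Atp5g2 at -0.28, and macrophage- against monocyte-like cells gave 47 higher and 8 lower, with Uqcrq at 0.14, Cox8a at 0.10 and Cox7c at 0.22. With the mixed unnamed cluster added, that comparison gave 12 higher and 35 lower, with Ndufa13 at -0.11 and Ndufa2 at -0.028. Adding the Cst7-led cluster to microglia-like cells, or leaving out the Ttr-led cluster, moved no count past 1.5 times. The cause of these shifts was not tested. Low counts limit Cox4i2, Cox6b2, Cox7a1 and Cox8b.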
